A study of Homo sapiens with 4 samples.

Results

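The expression and m6A marking of 9 genes of the epithelial tight junction were examined in A549 cells with and without knockdown of YTHDF2. The 9 genes are CLDN1, CLDN2, CLDN4, CLDN7, CLDN12, OCLN, F11R, TJP1 and CGN, picked by name out of the 28283 genes of the deposited expression table, and all 9 were found in it. They were chosen because CLDN2 had a high ratio of knockdown over control in these same libraries, and its partners were added to see whether they followed, so the difference in CLDN2 is a description here and not a finding. A549 is a human lung adenocarcinoma cell line. The control cells carried a vector control (shNC, labelled control in genotype). The knockdown cells carried 1 shRNA against YTHDF2 (shY2-2), delivered stably by a lentiviral vector, and a second shRNA of the study was not analysed here. Poly(A) RNA was fragmented, and from each condition 1 library was made of the input and 1 of the fragments bound by an m6A antibody (IP). With 4 libraries in all and no replicates, no difference between shNC and shY2-2 was tested, and whether it exceeds the spread between cultures is not known.

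Tight junctions seal the space between neighboring epithelial cells. Claudins are the membrane proteins that form the strands, and the set of claudins in a cell decides which ions pass. Occludin and the junctional adhesion molecule F11R (JAM-A) are further membrane proteins of the junction. ZO-1, the product of TJP1, and cingulin, the product of CGN, form the plaque that ties the strands to actin. m6A is the most common internal modification of mRNA, often placed within a GGAC sequence near the stop codon and in the 3′-UTR, and YTHDF2 is a reader of m6A that leads marked mRNAs to decay.

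YTHDF2 itself was at an FPKM of 3.56 in shNC and 1.02 in shY2-2, a log2 ratio of -1.18. FPKM counts fragments per exon length and library size, and all log2 ratios below were taken after 1 was added to each FPKM, which understates the change of genes at low FPKM. The 12268 genes that reached an FPKM of 1 in either input library were kept, and their median log2 ratio was 0.00. The depth of the input libraries, estimated from steps in the FPKM values, was about 20700000 fragments in shNC and 25800000 in shY2-2, and that of the IP libraries is unknown. Of the epithelial markers EPCAM, KRT7, KRT8, KRT18, KRT19 and CDH1, all 6 exceeded an FPKM of 1, and their summed FPKM was 1597 in shNC and 1021 in shY2-2. All 6 were lower in shY2-2, with log2 ratios between -0.46 (EPCAM and KRT18) and -0.95 (KRT19). Of the alveolar type II markers, SFTPC (surfactant protein C) was at 0.03 and 0.07, ABCA3 (a lipid transporter of lamellar bodies) was at 4.81 and 3.62, and no value was used for NKX2-1 and SFTPB. Of 10 markers of fibroblasts, endothelial cells and leukocytes, only COL1A1 (0.834 and 1.64) and CD68 (12.2 and 10.2) reached an FPKM of 1 in either library.

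CLDN2 was nearly silent in the control library and was the third most abundant of the 9 genes in the knockdown library. Claudin-2 forms a channel for cations and water and is typical of leaky epithelia. The gene lies on chromosome X of GRCh38 (106900164 to 106930861, + strand). Its FPKM was 0.0469 in shNC and 10.4 in shY2-2, which corresponds to about 3 and 794 fragments on its mRNA of 2961 nt. The log2 ratio was 3.44, and it ranked 3 from the top among the 12268 genes. It was 6.16 with 0.1 and 7.51 with 0.01 in place of 1 as the pseudocount, so the size of the difference depends on how the low control value is treated. For the 500 genes nearest to CLDN2 in mean FPKM, the central 95% of log2 ratios ran from -1.02 to 0.66. In bulk RNA, more cells with CLDN2 and more CLDN2 per cell cannot be told apart.

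The CLDN2 locus lies within the span of MORC4, which is read from the opposite strand and shares no exon sequence with CLDN2. MORC4 went the other way, with an FPKM of 25.2 in shNC and 14.7 in shY2-2 (log2 ratio -0.74). The exons of RIPPLY1, also on the opposite strand, overlap those of CLDN2, and RIPPLY1 was at 0.122 and 0.0653. The libraries were made by the dUTP method, which keeps the strand, but whether StringTie was told to use it is not given in the sources used here.

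The partners did not follow CLDN2. Of the 7 members that were kept, CLDN2 was the only member with a log2 ratio above 1 (background 0.986% of the genes kept), and OCLN was the only member below -1 (background 2.14%). In either direction this makes 2 of 7 members against 3.12% of all genes kept, and 1 of these 2 is the gene for which the set was chosen. Each of the 2 reached an FPKM of 1 in only 1 library, CLDN2 in shY2-2 and OCLN in shNC. The count is therefore a description only. The median log2 ratio of the 7 members was -0.15, and without CLDN2 that of the other 6 was -0.16. CLDN4 and CLDN7 were below an FPKM of 1 in both libraries and were not kept.

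**Figure D1:**
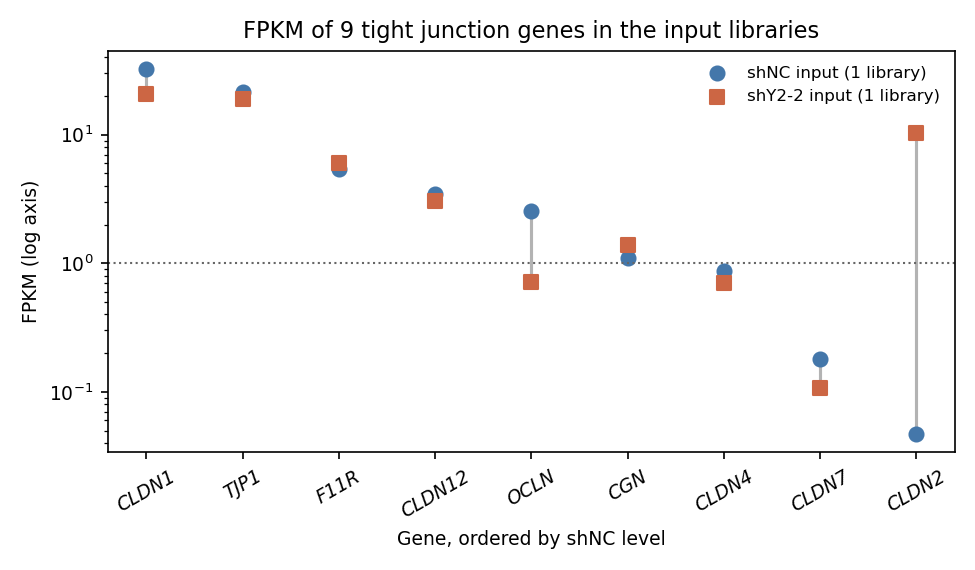
FPKM of the 9 genes on a log axis in the shNC input library (circles) and the shY2-2 input library (squares), 1 library each, ordered by the shNC level, with the dotted line at an FPKM of 1. CLDN2 moves from 0.0469 to 10.4, OCLN drops below the line from 2.55 to 0.715, and the symbols of the other 7 genes lie close together.

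Among the other claudins, CLDN1 was the most abundant member in both libraries. Claudin-1 is a sealing claudin found in most epithelia. CLDN1 (chromosome 3, 190305701 to 190322475, - strand) was at an FPKM of 32.4 in shNC and 20.9 in shY2-2, a log2 ratio of -0.61. This did not pass 1 in size and lay inside the central 95% of the genes nearest in mean FPKM, which ran from -0.88 to 0.80. CLDN12 (chromosome 7, 90383721 to 90513402, + strand), which encodes a claudin without the PDZ-binding tail of its relatives, was at 3.48 and 3.04 (log2 ratio -0.15). CLDN4, a sealing claudin (chromosome 7, 73799542 to 73832693, + strand), was at 0.873 and 0.699. CLDN7 (chromosome 17, 7259903 to 7263983, - strand) was at 0.181 and 0.107, about 6 and 4 fragments, so no direction can be read from it. None of the 4 other claudin members was higher in shY2-2.

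The table holds 18 claudin genes in all, and their summed FPKM hardly differed between the libraries, with 48.2 in shNC and 45.2 in shY2-2. The composition of that sum did differ, but CLDN2 was chosen for its ratio in these same libraries, so its share is a description only. A larger share of CLDN2 also lowers that of CLDN1. CLDN1 made up 67.3% of it in shNC and 46.3% in shY2-2, whereas CLDN2 made up 0.0972% and 23.0%. Without CLDN2 the sum was 48.2 in shNC and 34.8 in shY2-2. Of the claudins outside the 9 genes, 3 reached an FPKM of 1. CLDN15, which like CLDN2 forms cation channels, was at 5.44 and 5.75 (log2 ratio 0.07, the highest of the 3). CLDN23 was at 2.12 and 2.04. CLDN3, a sealing claudin, was at 3.03 and 1.84 (log2 ratio -0.50, the lowest). Of the 6 claudins kept, CLDN2, chosen for its ratio, was the only claudin with a log2 ratio past 1 in size.

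**Figure D2:**
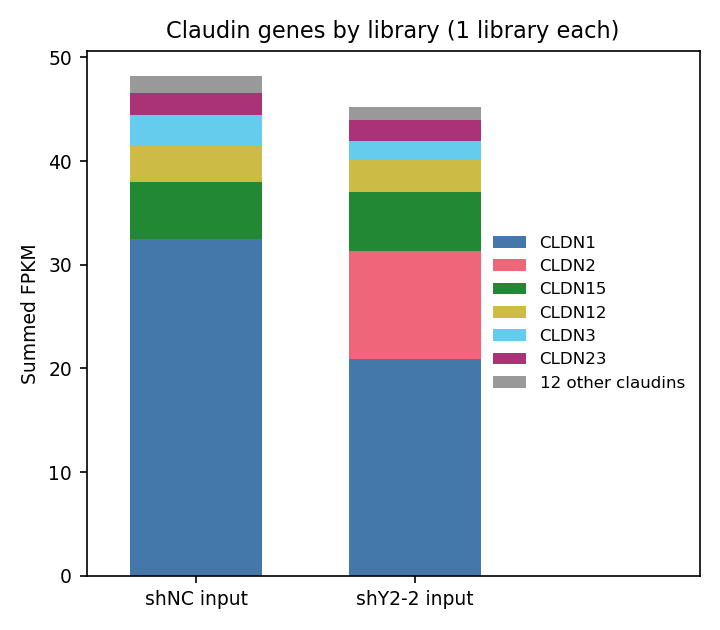
Summed FPKM of the 18 claudin genes of the table in the shNC and shY2-2 input libraries (1 library each), with each colored segment standing for 1 gene and gray for the other 12. The bars are close in height (48.2 and 45.2), while the CLDN2 segment is seen in shY2-2 and is too thin to see in shNC, and the CLDN1 segment is shorter in shY2-2.

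OCLN moved against CLDN2. Occludin is a MARVEL-domain protein of the strands and the first membrane protein found in them. OCLN (chromosome 5, 69492292 to 69558104, + strand) was at an FPKM of 2.55 in shNC and 0.715 in shY2-2, which is 3.57-fold lower and a log2 ratio of -1.05. About 326 and 114 fragments stand behind these values on an mRNA of 6181 nt. The ratio ranked 224 from the bottom of the 12268 genes, and the central 95% of the genes nearest in mean FPKM ran from -0.81 to 0.87. It passed 1 in size by a small margin, and it was -1.70 with a pseudocount of 0.1 and -1.82 with 0.01. OCLN is left out when an FPKM of at least 5 is asked for.

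F11R, TJP1 and CGN differed little between the libraries. F11R, an immunoglobulin-like adhesion protein (chromosome 1, 160995211 to 161021348, - strand), was at 5.37 in shNC and 6.0 in shY2-2 (log2 ratio 0.14). TJP1, the scaffold that binds the tails of claudins and occludin (chromosome 15, 29699367 to 29968865, - strand), was at 21.3 and 18.9 (log2 ratio -0.17). CGN, the plaque protein that binds ZO-1 (chromosome 1, 151510510 to 151538692, + strand), was at 1.09 and 1.39 (log2 ratio 0.19). Of the 7 members kept, CLDN1, CLDN12, F11R, TJP1 and CGN lay inside the central 95% of the genes nearest in mean FPKM, and CLDN2 and OCLN were outside it, above and below. The order of the members by FPKM was the same in both libraries apart from CLDN2, which went from 9 to 3, and OCLN, which CGN passed.

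**Figure D3:**
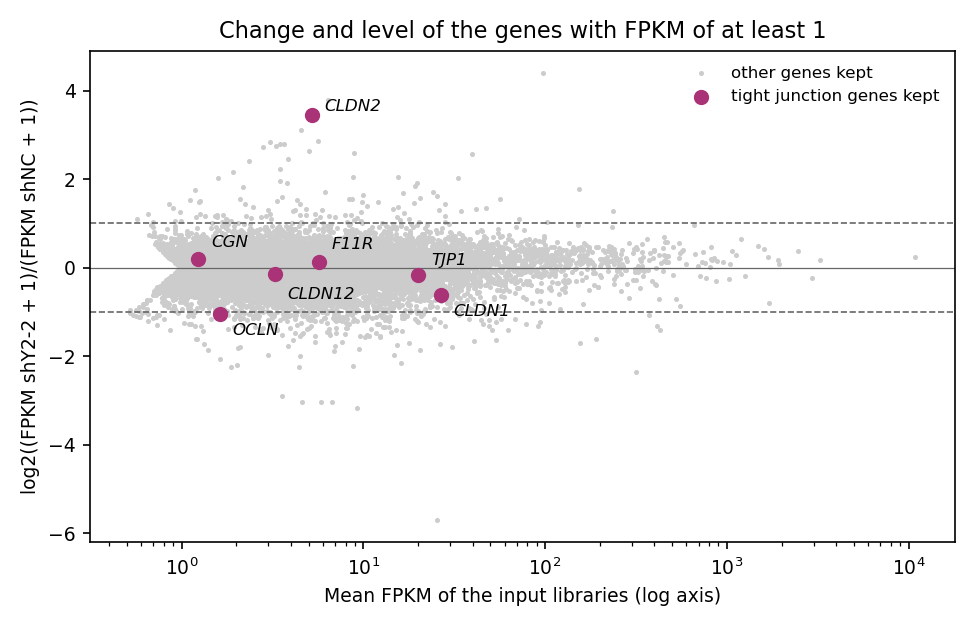
Log2 ratio of shY2-2 over shNC against the mean FPKM of the input libraries (log axis) for the 12268 genes kept (gray), with the 7 members among them named and dashed lines at log2 ratios of -1 and 1. CLDN2 stands above the cloud at 3.44, OCLN sits at its lower edge at -1.05, and CLDN1, CLDN12, TJP1, F11R and CGN lie within it.

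The wider junction was described with 7 lists that hold 68 further genes, of which 40 were kept. None of the 40 had a log2 ratio above 1 (background 0.986%), and 3 were below -1 (background 2.14%), namely ROCK2, CTNND1 and AMOTL2. ROCK2, a kinase that drives contraction of the actin belt, was at 11.5 in shNC and 2.41 in shY2-2 (log2 ratio -1.87). CTNND1, which encodes p120-catenin and holds cadherins at the membrane, was at 28.5 and 11.7 (-1.22). AMOTL2, an angiomotin that links polarity proteins with YAP, was at 19.5 and 8.64 (-1.09). The median log2 ratio of the 40 genes was -0.24 beside 0.00 for all genes kept, and 27 of the 40 (67.5%) were below 0 beside 49.7% of all genes kept. The lower values of these lists moved with those of all 6 epithelial markers, and the part of the latter in the former was not tested. CDH1, which encodes E-cadherin, belongs to both and was at 9.99 in shNC and 5.28 in shY2-2 (-0.81).

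By list, all 5 plaque scaffolds kept had log2 ratios below 0, from MAGI3 (2.98 and 2.14, -0.34) to TJP3 (1.51 and 1.29, -0.13). This depends on the filter, since MAGI1 narrowly missed an FPKM of 1 and was above 0 (0.596 and 0.9997, 0.32). CGNL1 (-0.13) and MAGI2 (-0.02), also not kept, were below 0. The tricellular protein gene LSR was at 1.30 and 0.515 (-0.60), and MARVELD2, which encodes tricellulin, was at 1.23 and 0.650 (-0.44). These were the lowest and the highest of the 2 genes kept in their list. Among immunoglobulin-like adhesion proteins, JAM3 was at 0.675 and 1.23 (0.41) and CXADR, the coxsackievirus and adenovirus receptor, at 2.58 and 1.95 (-0.28). Of 9 polarity genes, 4 were above 0, with PARD6G the highest (1.02 and 1.60, 0.36). Of 10 junction regulators, 5 were above 0, with YBX3, a Y-box factor that binds ZO-1, the highest (13.0 and 19.4, 0.54). Of 9 adherens junction genes, 7 were below 0, and NECTIN1 was the highest (3.32 and 4.61, 0.38).

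**Figure D4:**
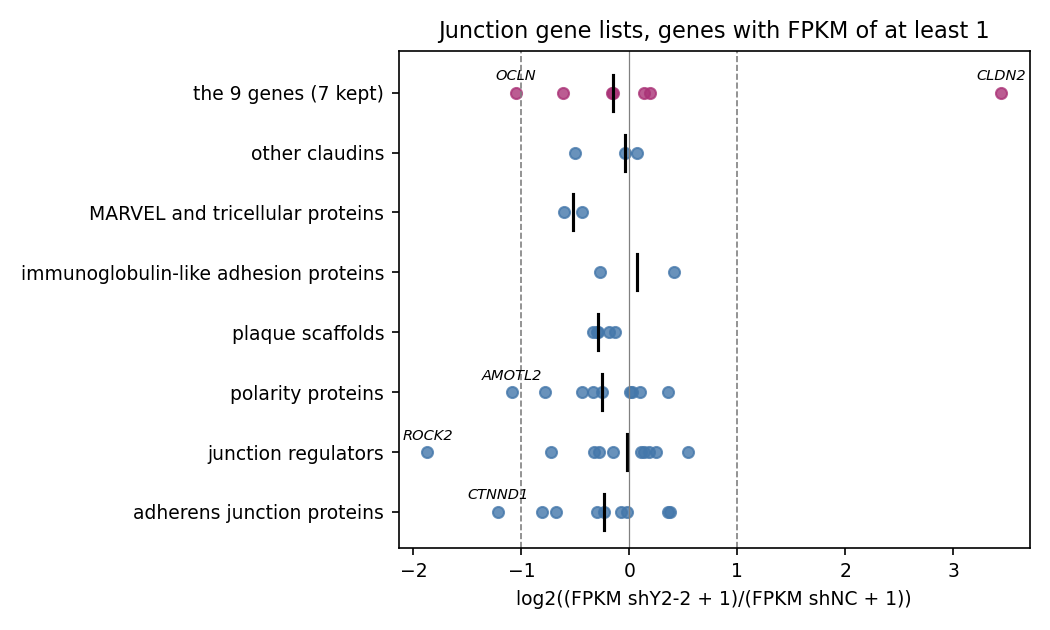
Log2 ratio of shY2-2 over shNC for each gene with an FPKM of at least 1 (points) in the set of 9 genes and in 7 lists of other junction genes, with the median of each list as a vertical bar and dashed lines at -1 and 1. CLDN2 is the only point to the right of 1, and OCLN, AMOTL2, ROCK2 and CTNND1 are the points to the left of -1.

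The m6A peaks of the 9 genes were taken from the deposited lists, which give for each peak a fold enrichment of IP over input and a false discovery rate (FDR). In shNC there were 31057 distinct peaks in 12025 genes, and in shY2-2 there were 27344 in 11963 genes. All had an exomePeak p-value of at most 0.049. The study reported fewer peaks and fewer genes for both conditions. Counts and backgrounds below use all of the listed peaks unless an FDR is given. The shNC list holds 18 peaks in 7 of the 9 genes and the shY2-2 list 14 peaks in 4 of them. CLDN1, CLDN12, F11R and TJP1 had a peak in both lists, CLDN7, OCLN and CGN in shNC alone, and CLDN2 and CLDN4 in neither. Of the 7 members kept by FPKM, 4 had a peak in both lists (background 72.7% of the genes kept), 6 had a peak in shNC (background 81.2%) and 4 in shY2-2 (background 78.4%). An FDR of at most 0.05 was reached by 12 of the 18 peaks in shNC and by 5 of the 14 in shY2-2. The share of all peaks at that FDR is not given here, so this difference cannot be told apart from one of the whole lists. By the annotation of the authors, 13 of the 18 and 9 of the 14 lay in 3′-UTRs, and the share of all peaks is not given here. On the canonical transcripts some of these lie elsewhere. The F11R peaks of shNC from 161000283 and from 161000322 lie in the coding sequence across exons 4 and 5. The TJP1 peak of shY2-2 from 29699906 lies outside the canonical transcript.

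CLDN2 had no peak in the shY2-2 list although it was well expressed there. Of the 500 coding genes nearest to CLDN2 in shY2-2 FPKM (9.52 to 11.3), 93.2% had a peak in that list. In shNC, where CLDN2 was nearly silent, 8% of the 500 genes nearest in FPKM (0.0366 to 0.0600) had a peak, so the lack of a peak there says little. The sequence GGACT, a frequent form of the m6A consensus, is nevertheless present. The canonical CLDN2 mRNA of 2 exons holds GGAC at 8 places and GGACT at 4, which is 1.35 GGACT per kb beside a median of 0.924 over the canonical mRNAs of 10686 coding genes kept. For GGAC it was below the median, with 2.70 per kb beside 3.68. The places are shown because CLDN2 holds this sequence and has no peak assigned to it. The reference sequence of GRCh38 is given on the + strand with GGACT in capitals, the first from the coding sequence, 258 nt before the end of the stop codon, and the others from the 3′-UTR, at 292, 328 and 802 nt after it, all in exon 2.
CLDN2 chrX:106928653-106928677: ggatcctacgGGACTtctactcacc
CLDN2 chrX:106929203-106929227: ccttaagccaGGACTcagaggatcc
CLDN2 chrX:106929239-106929263: ggtttacctgGGACTccatccccaa
CLDN2 chrX:106929713-106929737: aggtggcagcGGACTctgactccac

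CLDN4 had no peak assigned to it in either list at an FPKM of 0.873 and 0.699. At these levels, 64% and 59.6% of the 500 coding genes nearest in FPKM had one. Its mRNA of 1695 nt is the densest of the 9 in this sequence, with 15 GGAC and 6 GGACT, or 3.54 GGACT per kb. CLDN1 is at the other end, with 4 GGAC and no GGACT in 3446 nt, and yet it had peaks in both lists. The density of GGACT therefore did not order the 9 genes by their number of peaks.

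CLDN1 had 3 peaks in shNC and 2 in shY2-2, all in the 3′-UTR within exon 4, the last exon. The peak at the 3′ end of the mRNA (chromosome 3, 190305701 to 190306058 in shNC and 190305761 to 190306028 in shY2-2) had a fold enrichment of 2.46 (FDR 0.000191) in shNC and 1.93 (FDR 0.00447) in shY2-2. A weaker peak from 190306803 was at 1.30 in shNC (FDR 0.0447) and 1.34 in shY2-2 (FDR 0.0550). The peak nearest to the stop codon, from 75 to 164 nt after it, was called in shNC alone with a fold enrichment of 1.53 (FDR 0.00372). Over all 21726 pairs of overlapping peaks of the lists, the log2 ratio of fold enrichments had a median of -0.08 and a central 95% from -1.58 to 1.48. Both CLDN1 pairs, with log2 ratios of -0.35 and 0.04, lay well inside this range.

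TJP1 had 3 peaks in shNC and 4 in shY2-2, and the peak with the lowest FDR of the 9 genes was in its 3′-UTR. In shNC this peak ran from 29700146 to 29700655 on chromosome 15 with a fold enrichment of 5.65 (FDR 1e-17). In shY2-2 it ran from 29700176 to 29700565 at 2.06 (FDR 8.32e-05), a log2 ratio of -1.46, near the lower end of the range for all pairs at percentile 3.08. The other shNC peaks of TJP1 lie in the coding sequence, in exon 25 of 28 (fold enrichment 1.41, FDR 3.72e-08) and across exons 14 and 15 (4.58, FDR 0.0162), and met no shY2-2 peak. None of the other 3 shY2-2 peaks of TJP1 had an FDR under 0.26. Of these, the peaks from 29699906 to 29700086 and from 29823223 to 29823341 lie outside the canonical transcript. The latter lies in the exon of ENSG00000259523, a gene of the opposite strand at an FPKM of 1.73 in shNC and 0.536 in shY2-2.

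F11R had the most peaks, 7 in shNC and 5 in shY2-2, which merge into 5 and 4 regions because some overlap within a list. ENSG00000270149, a gene of the same strand that shares exons with F11R, was at an FPKM of 0.00155 in shNC and listed at 0 in shY2-2. In the middle of the 3′-UTR, the shNC peak from 160997998 to 160998448 on chromosome 1 (fold enrichment 3.64, FDR 1.82e-06) met shY2-2 peaks at 4.63 (FDR 0.00501) and 2.50 (FDR 0.00871). Which of these is compared decides the direction, since the log2 ratio was 0.35 with the former and -0.54 with the latter. A region farther downstream, from 160996470, was at 4.2 in shNC (FDR 0.00380) and 1.98 in shY2-2 (FDR 0.185), a log2 ratio of -1.08 at percentile 6.05 of all pairs. The F11R peak at the 5′ end in shY2-2 and the first TJP1 peak of that list had the same fold enrichment of 6.94 and FDR of 0.979 as 866 peaks of the shY2-2 list.

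CLDN12 had 1 peak in shNC and 3 in shY2-2. The shNC peak in the 5′-UTR (fold enrichment 1.85, FDR 0.0407) shared 1 base with a shY2-2 peak (1.70, FDR 0.405), which also shares 17 nt with a shNC peak assigned to CDK14. The only CLDN12 peak of shY2-2 with an FDR of at most 0.05 (90378182 to 90385098, fold enrichment 1.74, FDR 0.00380) starts before the CLDN12 gene of the expression table. It lies outside the canonical transcript and shares up to 207 nt with shNC peaks assigned to GTPBP10, a gene of the same strand with overlapping exons (FPKM 1.75 and 1.48), so it cannot be assigned to CLDN12 alone. Over the 9 genes, 7 of the 18 shNC peaks (38.9%) met a shY2-2 peak beside 55.9% of the whole list, and 8 of the 14 shY2-2 peaks (57.1%) met a shNC peak beside 65.4%. Fold enrichment was lower in shY2-2 in 6 of the 9 overlapping pairs, beside 57.2% of all pairs, and 4 of the 9 are combinations of overlapping peaks in 1 region of F11R.

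The peaks of OCLN, CGN and CLDN7 were called in shNC alone. The OCLN peak (chromosome 5, 69553617 to 69553857) spans the stop codon in exon 9, the last exon, from -54 to 186 nt relative to its last base, with a fold enrichment of 1.80 (FDR 0.0282). In shY2-2 the FPKM of OCLN was 0.715, and 60.2% of coding genes at that level had a peak beside 82.6% at its shNC level. CGN had a peak across exons 13 and 14 of 21 in the coding sequence (3.82, FDR 0.157) and another in the 3′-UTR (4.2, FDR 0.272), neither of them at an FDR of 0.05. The CLDN7 peak of 59 nt (1.60, FDR 0.0398) lies in the coding part of exon 1 but was annotated to an exon of ENSG00000262302, a gene of the same strand that shares exons with CLDN7. Both genes were near the limit of detection, at an FPKM of 0.181 and 0.155 in shNC.

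**Figure D5:**
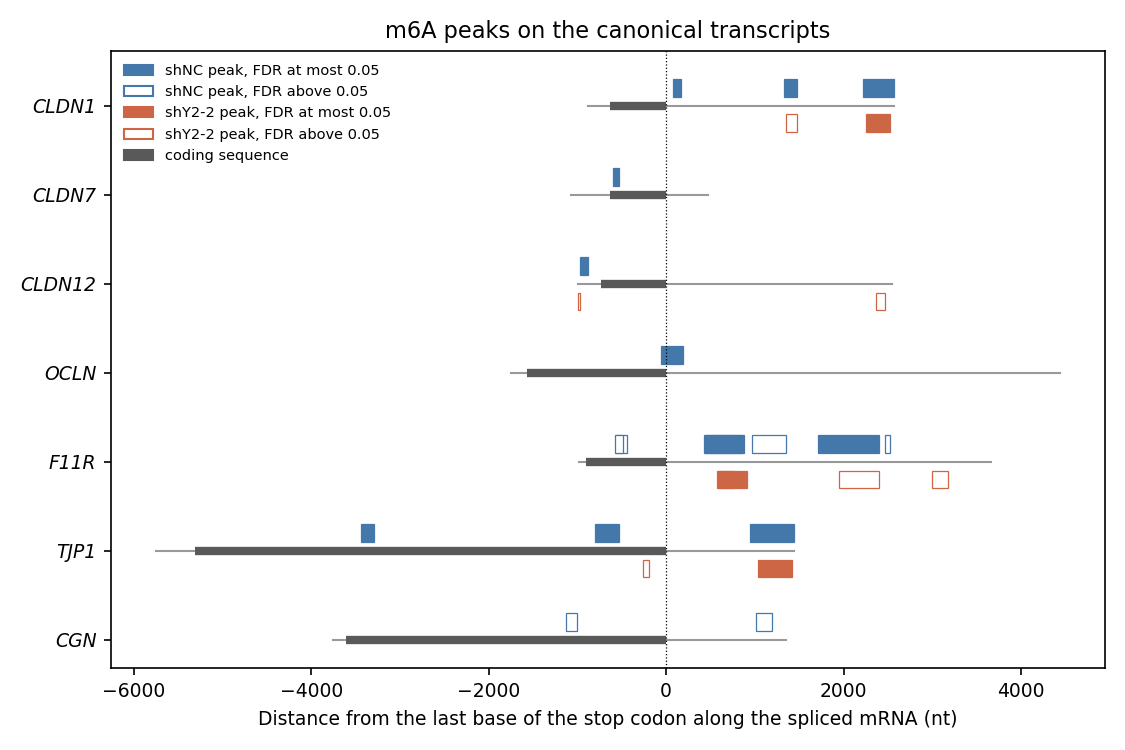
Peaks of the 7 genes with a peak, drawn along the spliced canonical mRNA as distance in nt from the last base of the stop codon, with shNC above and shY2-2 below each line, the coding sequence thick, and peaks with an FDR of at most 0.05 filled. Filled peaks in both lists are seen in the 3′-UTRs of CLDN1, F11R and TJP1, while OCLN, CLDN7 and CGN have peaks in shNC alone. The 4 shY2-2 peaks outside the canonical transcripts of CLDN12, TJP1 and F11R are not drawn.

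GGAC and GGACT, the only forms of the m6A consensus searched here, were found in a minority of these peaks. Whether the other peaks hold another form was not examined. In shNC, 6 of 18 peaks held GGAC, and in shY2-2 it was 3 of 14 (33.3% and 21.4%), beside 52.2% and 48.5% of all peaks within 20% of the same length in those lists. GGACT was present in 1 and 2 of the member peaks, beside 23.0% and 20.2%. All 3 shY2-2 peaks with GGAC lie outside the canonical transcripts of CLDN12 and TJP1. The 2 with GGACT are the CLDN12 peak that cannot be assigned to CLDN12 alone and the TJP1 peak in the exon of ENSG00000259523. The bases common to the overlapping peaks of both lists held no GGACT in any of the 9 genes. GGAC within peaks of an FDR of at most 0.05 on a canonical transcript is shown on the strand of the gene, in capitals, so that the letters under the peaks described above can be seen. All 5 places lie in shNC peaks, and the shY2-2 peaks that overlap those of CLDN1 and F11R shown here held no GGAC. The place in OCLN lies 75 nt after the end of the stop codon, those in CLDN1 and F11R in the 3′-UTR and that in TJP1 in the coding sequence of exon 15.
OCLN chr5:69553736-69553759, + strand: aaatgactttGGACcataaccccg
CLDN1 chr3:190306017-190306040, - strand: atgaggaattGGACctaataaatt
F11R chr1:160997122-160997145, - strand: ctccccatttGGACccttctctgc
F11R chr1:160997047-160997070, - strand: cttagcaagaGGACaagtaaaggg
TJP1 chr15:29732486-29732509, - strand: aaccatttttGGACcaatagctga

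The coding peak of CGN was the only shNC peak with GGACT, which occurs there at 2 places, in exons 13 and 14. They are shown with GGACT in capitals for comparison with CLDN2, which has the same letters and no peak assigned to it.
CGN chr1:151530711-151530735, + strand: ttgctggacaGGACTgtggaccgac
CGN chr1:151532409-151532433, + strand: agatcggggaGGACTctaagcaagc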

How the data were processed

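RNA-seq and m6A-seq were available for 4 libraries of A549 cells, 1 input and 1 IP library for each of shNC and shY2-2. The authors trimmed reads with fastp (per the submitters' notes), mapped them to GRCh38 with HISAT2, and computed the deposited FPKM per gene from the input libraries with StringTie. The authors used exomePeak to call peaks in each condition on its own, from 1 IP and 1 input library, and ChIPseeker to annotate them. HOMER is also named in the notes. The deposited p-value, the log10 scores of the p-value and the FDR, and the fold enrichment (a ratio of IP over input) of each peak were used as the authors gave them. Tool versions and the annotation release are not given in the sources used here.

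The log2 ratio of a gene is that of its FPKM in shY2-2 plus 1 over its FPKM in shNC plus 1. Of 28283 genes, the 12268 that reached an FPKM of 1 in either input library were kept. No test between conditions was made, since each has 1 library. FPKM is not a count, so fragments behind a value were estimated from steps in the FPKM of single-exon genes. Among low values of such genes, 43.2% in shNC and 42.1% in shY2-2 lay within 0.03 fragments of a multiple of 0.5 fragments, against 12% if values were spread evenly. The steps imply about 20700000 and 25800000 mapped fragments. Estimates used the length of the GENCODE 44 canonical transcript and are no counts. Central 95% ranges are those of the 500 kept genes nearest in mean FPKM. Peaks were compared by at least 1 shared exonic base on the same strand, after repeated rows were counted once, and placed on canonical transcripts. Motifs were searched on the strand of the gene.

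The 9 genes, 7 junction gene lists and markers were chosen with earlier results of these data known. Named besides the 9 genes are list genes past a log2 ratio of 1 in size, the highest and lowest gene of each list, YTHDF2 and genes whose exons overlap a member on the same strand. MORC4, RIPPLY1 and ENSG00000259523, on the opposite strand, were named after their values were seen. Alternatives were other pseudocounts, filters, thresholds, centring, peak filters and overlap rules. The steps were tested on simulated data. Python 3.11.15 with NumPy 2.4.6, pandas 2.3.3, pysam 0.24.0 and matplotlib 3.10.9 was used.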

Additional observations from a re-analysis of the deposited data

How the results depend on the processing

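No paired analysis was possible because each condition has 1 input and 1 IP library. With 1 library per condition, differences cover neither biological nor technical spread. All 9 members kept the sign of their log2 ratio with pseudocounts of 0.1 and 0.01 and with centring. A pseudocount cannot change this sign. Centring moved each ratio by only 0.0097, less than the size of the smallest member ratio (CLDN7, -0.094). Neither is therefore a check of direction. The number of all genes past 2-fold was 917 with a pseudocount of 0.1 and 1037 with 0.01, beside 383, and 1754 at 1.5-fold. With an FPKM of at least 5, 1 member was past 2-fold in place of 2, and the median of the members was -0.015 in place of -0.15, because OCLN, CLDN12 and CGN were then left out. At 1.5-fold, 8 list genes were past the threshold in place of 3. With the KEGG tight junction genes without the members as the list, added after the data were seen, 5 were past 2-fold. For peaks, the numbers were 4 members with a peak in both lists, 18 peaks in shNC, 14 in shY2-2 and 7 overlapping. An FDR of at most 0.05 left 5 peaks in shY2-2 and 4 overlapping. An FDR of at most 0.001 left 1 member, 5 shNC peaks, 1 shY2-2 peak and 1 overlapping. A fold enrichment of at least 2 left 2 members, 8, 7 and 3 peaks, and at least 4 left 2 members, 4, 3 and 0. Each stricter filter keeps fewer peaks by construction.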

Other observations

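The deposited annotation assigns 151 genes to the KEGG term Tight junction, of which 112 were kept with a median log2 ratio of -0.09, and this list was added after the data were seen. Of the 106 kept outside the 9 genes, 1 was above 1 (background 0.986% of all genes kept) and 4 were below -1 (background 2.14%). The gene above 1 was SLC9A3R1. It encodes the scaffold EBP50, which joins membrane transporters to ezrin, and was at an FPKM of 7.34 in shNC and 25.7 in shY2-2 (log2 ratio 1.68). Below -1 were MYH9, the heavy chain of nonmuscle myosin IIA (70.2 and 27.6, -1.32), JUN (13.3 and 5.18, -1.21), ROCK2 and AMOTL2. Of the 107 genes of the GO term bicellular tight junction, 71 were kept, and the median log2 ratio of these was -0.17. This list was also added after the data were seen. Of the 71, 1 was above 1 (CLDN2, background 0.986%) and 3 were below -1 (OCLN, AMOTL2 and USP53, background 2.14%). USP53, which encodes a protein that binds ZO proteins, was lower in shY2-2 (3.05 and 0.831, -1.14) and reached an FPKM of 1 in shNC only.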
